A study of Mus musculus with 6 samples.

Results

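The immediate early activity genes described here are 10 genes that cells switch on within minutes of a stimulus, and they were measured by RNA sequencing in mouse cortex 14 days after stroke. They are Fos, Fosb, Junb, Arc, Egr1, Egr2, Nr4a1, Npas4, Ier2 and Dusp1, taken by symbol out of 24553 genes and unmatched rows. All 10 had at least 1 row in the count table, 9 of them exactly 1 row, and 9 had enough counts to be tested between groups. The 6 libraries came from male C57BL/6J mice aged 15 weeks. In 3 of them the animals had drunk short-chain fatty acids (SCFA), products of bacterial fibre fermentation in the gut, and in the other 3 a control solution matched for salt. Controls and treated animals alike drank 4 antibiotics, namely vancomycin, ampicillin, neomycin and metronidazole, in 5% sucrose. SCFA or control salts were offered for 4 weeks, beginning between 6 and 8 weeks of age. A library was treated as 1 animal because the design text counts 3 mice in each arm. The sources used here do not give the hemisphere or distance from the lesion, the interval between death and freezing, or what the animals did before death.

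Immediate early genes are transcribed from factors that already sit in the cell, so no new protein is needed first. In neurons, calcium entering through NMDA receptors and voltage-gated channels activates kinases that act on CREB, serum response factor and MEF2. Their products fall into transcription factors (Fos, Fosb and Junb of the AP-1 family, the zinc-finger proteins Egr1 and Egr2, the nuclear receptor Nr4a1, the neuron-specific factor Npas4), effectors at the synapse (Arc) and brakes on signalling (Dusp1). Most of them also respond to growth factors and stress in glia, endothelium and blood cells, whereas Npas4 is known for responding to calcium in neurons. Their transcripts are short-lived, so a level in frozen tissue reflects the last period before freezing.

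CREB binds the cyclic AMP response element (CRE), and the start regions of the genes were searched for it because it is the best known shared input of this set. The RefSeq promoter table of GRCm38.p6 held entries for 7 of the 10 genes. The 250 bases before the transcript start are shown for the 3 genes whose groups did not overlap (Fos, Nr4a1 and Dusp1), for Npas4, which had the widest fold difference, and for Junb, whose groups overlapped. Each is written 5′ to 3′ on the strand of the gene, and capitals mark the CRE half-site TGACG on either strand (CGTCA when read on the other), the full site TGACGTCA, and the TATA box TATAAA. The windows lie at chr12:85473640-85473889 (plus strand) for Fos, chr15:101266596-101266845 (plus) for Nr4a1, chr17:26508473-26508722 (minus) for Dusp1, chr19:4989972-4990221 (minus) for Npas4 and chr8:84978749-84978998 (minus) for Junb.
Fos: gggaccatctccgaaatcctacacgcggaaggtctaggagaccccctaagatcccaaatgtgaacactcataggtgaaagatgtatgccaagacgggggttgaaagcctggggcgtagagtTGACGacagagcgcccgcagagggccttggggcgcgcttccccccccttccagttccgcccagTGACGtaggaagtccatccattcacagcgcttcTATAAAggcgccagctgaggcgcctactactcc
Nr4a1: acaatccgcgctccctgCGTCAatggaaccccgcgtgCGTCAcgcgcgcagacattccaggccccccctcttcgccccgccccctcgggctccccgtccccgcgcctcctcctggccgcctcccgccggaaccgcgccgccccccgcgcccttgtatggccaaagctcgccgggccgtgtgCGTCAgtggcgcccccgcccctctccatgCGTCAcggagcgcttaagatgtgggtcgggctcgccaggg
Dusp1: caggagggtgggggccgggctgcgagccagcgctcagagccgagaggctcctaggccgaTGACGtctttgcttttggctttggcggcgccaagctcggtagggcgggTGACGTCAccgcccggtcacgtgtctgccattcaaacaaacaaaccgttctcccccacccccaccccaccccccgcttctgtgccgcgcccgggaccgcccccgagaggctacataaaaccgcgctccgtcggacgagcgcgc
Npas4: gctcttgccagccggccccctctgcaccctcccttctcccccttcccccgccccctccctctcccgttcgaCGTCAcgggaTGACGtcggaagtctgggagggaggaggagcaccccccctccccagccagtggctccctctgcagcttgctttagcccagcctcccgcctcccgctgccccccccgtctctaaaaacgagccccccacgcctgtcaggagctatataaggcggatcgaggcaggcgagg
Junb: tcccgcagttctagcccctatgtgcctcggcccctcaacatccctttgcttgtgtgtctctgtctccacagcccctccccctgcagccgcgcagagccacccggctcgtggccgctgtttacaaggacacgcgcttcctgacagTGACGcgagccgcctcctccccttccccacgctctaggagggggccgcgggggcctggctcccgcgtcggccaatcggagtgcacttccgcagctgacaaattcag

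All 7 genes with an entry held at least 1 CRE half-site in this window (for Egr2, in at least 1 of its 5 entries), against 17.8% of all 32851 promoter entries. In Fos a half-site began 66 bases before the start and a second one 129 bases before it. Nr4a1 had 4 half-sites, which began 40, 69, 213 and 233 bases before the start. Dusp1 was the 1 gene of the 7 with the full site, 143 bases before the start, and 1.55% of all entries hold it. That full site contains a half-site on each strand, and Dusp1 had a further half-site 191 bases before the start. Npas4 had 2 half-sites on opposite strands, 179 and 169 bases before the start, and Junb had 1, at 106 bases. The exact letters TATAAA were found in Fos alone of the 7, where they began 33 bases before the start, and 12.4% of all entries hold them on either strand. Variants of the TATA box, such as the letters tatataag in the Npas4 window, were not searched. The CArG box, the element bound by serum response factor, was found in Egr2 alone of the 7, against 1.47% of all entries. The AP-1 site TGANTCA was found in 0 of the 7 genes, against 6.75% of all entries, and the EGR site GCGGGGGCG in Fosb and Nr4a1, against 2.57%. These matches describe the letters in the window, and elements farther away were not searched.

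Total counts per library ran from 9275252 to 13862756, and 1 row with no gene symbol held 35.0% to 55.3% of them. Levels are given as CPM, the usual depth-normalised read count, with library sizes scaled by edgeR's trimmed mean of M values (TMM), so that 3 counts stood for 0.206 to 0.346 CPM. In each group a library stood apart. Control 2 had counts in 13600 transcript rows, against 15988 to 16941 in the other libraries, and lay at 109.2 on the first principal component, where the others lay between -25.77 and -17.74. SCFA 2 lay farthest out on the second component, and its summed striatal neuron markers reached 397.3 CPM, against 71.4 to 133.6 CPM in the other libraries. The excitatory cortical neuron markers, including Slc17a7 and Tbr1, all had enough counts to be tested (10 of 10), and they summed to 2665 to 3085 CPM with SCFA and 2323 to 2944 CPM in controls.

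None of the 9 tested genes passed the test between groups (quasi-likelihood test of edgeR, p adjusted by Benjamini-Hochberg over 11969 genes, threshold 0.05). Of all genes tested 0.0835% passed, 0.00835% higher and 0.0752% lower with SCFA. At an unadjusted p under 0.05, 3 of the 9 stood out, where 5.76% of all genes did. DESeq2 and limma-voom also called 0 of the 9. Over all genes DESeq2 called 13 higher and 16 lower, and limma-voom 0. The log2 fold change (SCFA over control) lay below 0 for 7 genes and above 0 for 2, with a median of -0.32, against a median of 0.01 and 49.1% of genes below 0 over all genes tested. The set's median is the value of Egr2, the tested gene with the fewest counts (SE 0.591). In 3 genes, Fos, Nr4a1 and Dusp1, every SCFA library lay below every control library, and in the other 6 the groups overlapped. Over all genes tested, 5.74% had every SCFA library below every control and 6.42% every SCFA library above, 12.2% in all. The genes were chosen with earlier results of these data known, so neither count was tested. In bulk tissue, fewer cells of a type and less RNA per cell cannot be told apart.

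**Figure D1:**
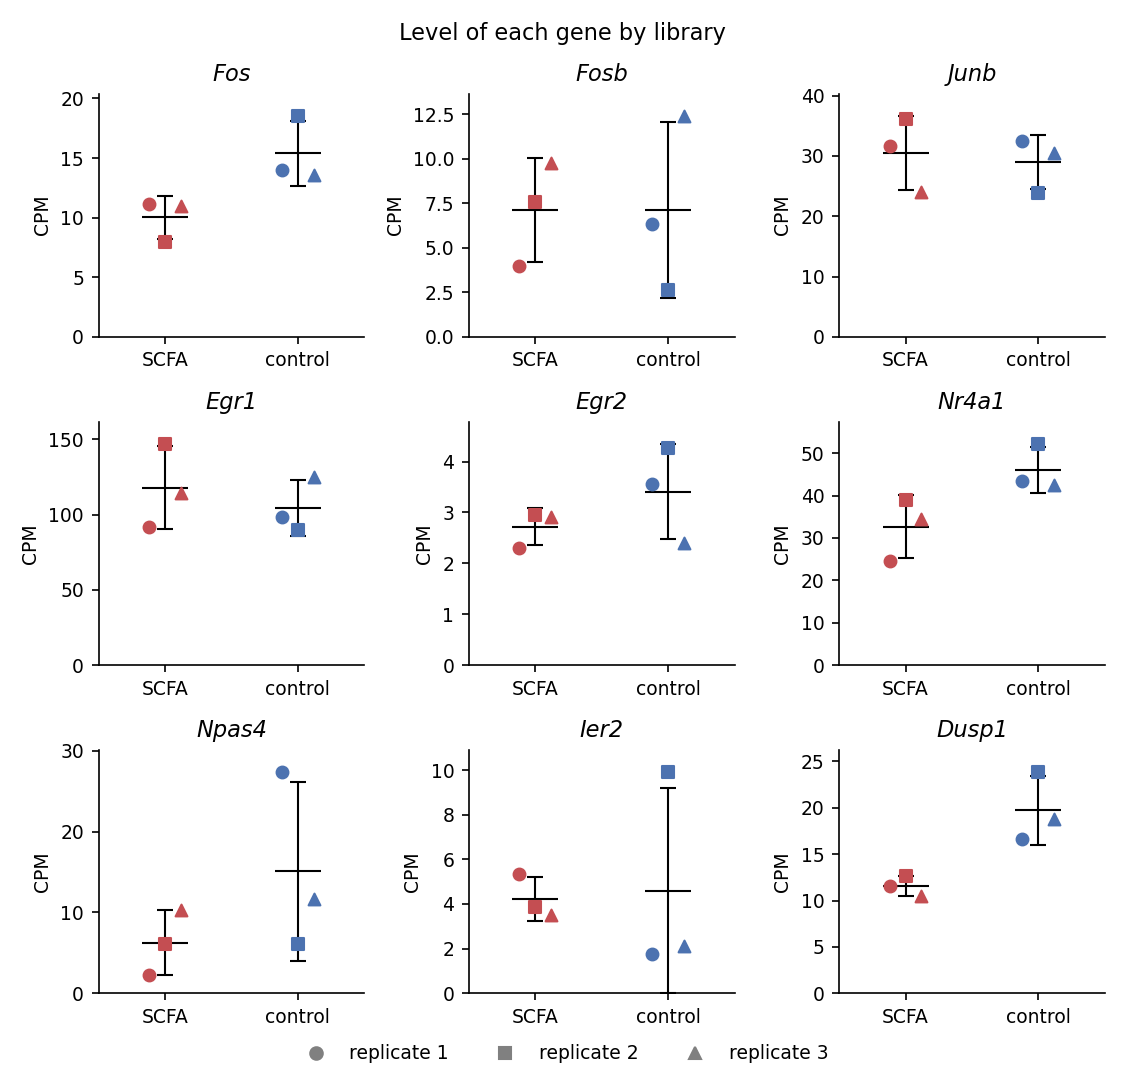
CPM of the 9 tested genes in each library, with SCFA at the left and control at the right of each panel. Bars show the mean and SD of 3 libraries and symbols the replicate number. In Fos, Nr4a1 and Dusp1 the 3 SCFA libraries lie below the 3 controls, while the groups overlap in the other 6 genes.

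Dusp1, on chromosome 17 from 26505591 to 26508472 (GRCm38), encodes a phosphatase that switches off mitogen-activated protein kinases. It measured 11.6, 12.7 and 10.5 CPM in SCFA 1 to 3, against 16.6, 23.9 and 18.8 CPM in controls 1 to 3. The SCFA libraries were close together, and the lowest control lay above the highest of them. The means were 11.6 ± 1.08 CPM with SCFA and 19.8 ± 3.72 CPM in controls (SD, n = 3 each). The log2 fold change was -0.77 (SE 0.267). In edgeR this had an unadjusted p of 0.0127 and an adjusted p of 0.864, and 157 genes had a smaller p. Dusp1 was also the 1 gene of the set whose raw counts did not overlap, with 111, 184 and 141 in SCFA 1 to 3 and 205, 207 and 188 in controls 1 to 3. Raw counts are not corrected for depth, and the share of all genes that did not overlap in them was not computed. Leaving out single libraries gave log2 fold changes of -0.87 to -0.61, and the one nearest to 0 was without control 2.

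Nr4a1 lies on chromosome 15 from 101253902 to 101274795 and encodes an orphan nuclear receptor induced in neurons, macrophages and vessel walls. Its level was 24.4, 38.9 and 34.5 CPM in SCFA 1 to 3, against 43.5, 52.2 and 42.4 CPM in controls 1 to 3. SCFA 1 was the lowest library and control 2 the highest. The means were 32.6 ± 7.41 CPM with SCFA and 46.1 ± 5.35 CPM in controls, and the log2 fold change was -0.49 (SE 0.213, edgeR unadjusted p = 0.0364, adjusted p = 0.864). The separation depended on the scaling. Without SCFA 1 the log2 fold change was -0.32, without SCFA 2 it was -0.63 and without control 2 it was -0.40. With total counts in place of TMM it was -0.29. In CPM of total counts, SCFA 2 stood at 47.3, above control 2 at 39.7 and control 3 at 40.8.

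Fos, on chromosome 12 from 85473890 to 85477274, encodes the AP-1 subunit most used as a marker of recently active cells. SCFA 1 to 3 held 11.2, 7.97 and 10.9 CPM, against 14.0, 18.6 and 13.6 CPM in controls 1 to 3. Here SCFA 2 was lowest and control 2 highest, so the 2 libraries that stood apart set the ends of the range. The means of 10.03 ± 1.79 CPM with SCFA and 15.4 ± 2.75 CPM in controls gave a log2 fold change of -0.62 (SE 0.294, edgeR unadjusted p = 0.0555, adjusted p = 0.872). Without both of those libraries it was -0.32 (adjusted p = 0.983). In CPM of total counts the groups did not overlap either, with 9.70 to 11.5 for SCFA and 13.1 to 15.7 for controls.

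The other AP-1 genes had smaller differences. Junb, a Jun-family partner of the Fos proteins, lies on chromosome 8 from 84976909 to 84978748. Its level was 31.5, 36.1 and 24.0 CPM in SCFA 1 to 3 and 32.4, 23.9 and 30.5 CPM in controls 1 to 3. The log2 fold change was 0.08 (SE 0.226, edgeR adjusted p = 0.975), and the groups covered almost the same range. It was -0.04 without control 2 and -0.06 without SCFA 2. Fosb, on chromosome 7 from 19302696 to 19310118, is known for the long-lived variant ΔFosB that builds up with repeated activity. It measured 3.97, 7.56 and 9.75 CPM in SCFA 1 to 3 and 6.31, 2.65 and 12.4 CPM in controls 1 to 3. The controls differed 4.68-fold among themselves, and the log2 fold change was -0.0036 (SE 0.529, edgeR adjusted p = 0.999). Without control 2 it was -0.39, and without control 3 it was 0.66. The table held 1 Fosb row, so the ΔFosB variant was not separated from the full-length form.

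Egr1, also called Zif268, is on chromosome 18 from 34861207 to 34864956 and is widely used to map active cortex. It was the most abundant of the set in counts, at 92.0, 147.1 and 114.6 CPM in SCFA 1 to 3 and 98.7, 89.8 and 125.1 CPM in controls 1 to 3. SCFA 2 was highest and control 2 lowest. The log2 fold change was 0.17 (SE 0.191, edgeR adjusted p = 0.943), and without SCFA 2 it was -0.01. Egr2, on chromosome 10 from 67534469 to 67542188, is a related zinc-finger factor that also directs myelination in peripheral nerve. It stood at 2.30, 2.96 and 2.90 CPM in SCFA 1 to 3 and at 3.56, 4.26 and 2.40 CPM in controls 1 to 3, and these values rested on 22 to 44 counts per library. The log2 fold change was -0.32 (SE 0.591, edgeR adjusted p = 0.961). It was -0.13 without control 2 and -0.52 without control 3. Egr2 overlaps the predicted gene Gm32255, and without a known strand setting their reads cannot be separated.

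Npas4, on chromosome 19 from 4984353 to 5003439, had the widest range of the set. It encodes a transcription factor that shapes inhibitory synapses onto active neurons. The level was 2.30, 6.05 and 10.3 CPM in SCFA 1 to 3, against 27.4, 6.11 and 11.7 CPM in controls 1 to 3. Control 1 lay far above every other library and SCFA 1 far below most, and SCFA 3 lay above control 2. The means of 6.23 ± 4.03 CPM with SCFA and 15.1 ± 11.0 CPM in controls gave a log2 fold change of -1.27 (SE 0.558, edgeR unadjusted p = 0.0404, adjusted p = 0.864). Without control 1 it was -0.50, and without SCFA 3 it was -1.83. The underlying counts were 22, 88 and 139 in SCFA 1 to 3 and 338, 53 and 117 in controls 1 to 3.

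Ier2, on chromosome 8 from 84661331 to 84662852, encodes a small nuclear protein induced early by growth factors. It measured 5.33, 3.85 and 3.50 CPM in SCFA 1 to 3 and 1.78, 9.91 and 2.10 CPM in controls 1 to 3. Control 2 lay above the SCFA libraries and both other controls lay below them. The log2 fold change was -0.11 (SE 0.655, edgeR adjusted p = 0.988) and turned to 1.12 without control 2. Arc, on chromosome 15 from 74669081 to 74672570, encodes a synaptic protein that removes AMPA receptors from the membrane. It had 0 counts in each of the 6 libraries in both of its 2 transcript rows. Genes with 2 or more rows stood at 0 in all libraries in 29.7% of cases, against 21.3% of genes with 1 row, and the sources used here do not say how reads shared by transcripts were counted. The count of 0 was therefore not read as absence of Arc.

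**Figure D2:**
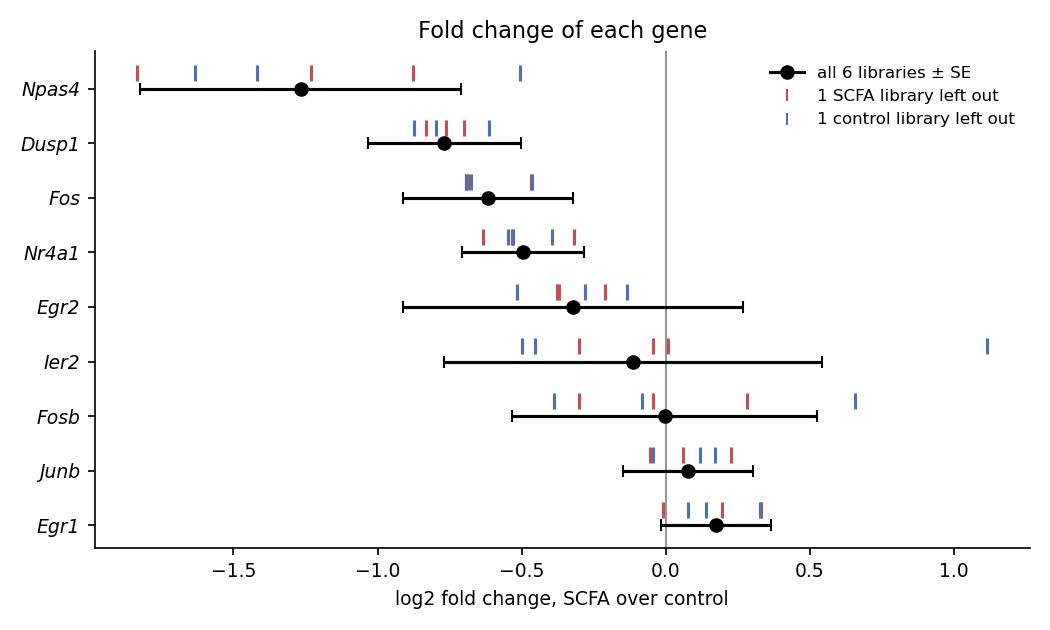
Log2 fold change of each tested gene, SCFA over control, with its SE (black). Coloured ticks give the value with 1 SCFA or 1 control library left out. The ticks of Dusp1, Fos, Nr4a1, Npas4 and Egr2 stay below 0, while those of Ier2, Fosb, Junb and Egr1 fall on both sides.

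The genes fell into a steady and a variable kind. The SD of log2 CPM within groups was 0.21 for Dusp1, 0.26 for Fos and 0.27 for both Junb and Nr4a1. Egr1 and Egr2 had 0.30 and 0.31, and all 6 lay under the median of 0.39 over all genes tested. The other 3 were far more variable, with an SD of 1.06 for Npas4, 0.95 for Ier2 and 0.89 for Fosb. These were larger than in 87.8%, 84.9% and 83.5% of genes tested, which were not matched for abundance. Ier2 was variable in controls only, with an SD of 1.31 there and 0.31 with SCFA. Counting error alone would give SDs of 0.18, 0.24 and 0.19 in these 3 genes. For Egr2 the counting SD of 0.25 came close to the measured 0.31. The 3 variable genes were highest in different libraries: Npas4 in control 1, Ier2 in control 2 and Fosb in control 3. Fosb and Npas4 both rose from SCFA 1 to SCFA 3, and among controls both were lowest in control 2. Ier2 fell from SCFA 1 to SCFA 3 and was highest in control 2.

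Likeness between genes was measured as the root-mean-square difference of their centred log2 CPM over the 6 libraries, as a description. The measure is not scaled by spread, so pairs of steady genes come out close. It also includes the group difference, and pairs of genes outside the set were not compared. Of 36 pairs, the closest were Egr2 and Nr4a1 (0.22), Fos and Dusp1 (0.24), Nr4a1 and Dusp1 (0.24) and Junb and Egr1 (0.25), where the median pair differed by 0.76 and Npas4 and Ier2 by 1.72. The pairs among Fos, Nr4a1, Dusp1 and Egr2 lay between 0.22 and 0.34. Control 2 was the highest library for 5 genes (Fos, Egr2, Nr4a1, Ier2 and Dusp1) and the lowest for 3 (Fosb, Junb and Egr1). SCFA 1 was the lowest for 3 genes (Egr2, Nr4a1 and Npas4) and the highest for 0.

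Ratios to Egr1 within a library do not depend on library scaling, and were added after the values had been seen. They do depend on Egr1, itself a gene of the set, which was highest in SCFA 2 (147.1 CPM) and lowest in control 2 (89.8 CPM). That alone lowers the ratios of SCFA 2 and raises those of control 2, so the ratios are no independent check. Per 100 Egr1 counts, Nr4a1 had 26.6, 26.5 and 30.1 in SCFA 1 to 3, against 44.1, 58.2 and 33.9 in controls 1 to 3. Dusp1 had 12.6, 8.60 and 9.16 per 100 Egr1 counts in SCFA 1 to 3, against 16.8, 26.6 and 15.0 in controls 1 to 3. For both genes every SCFA library lay below every control, and the share of all genes that did so was not computed. For Fos the ratios overlapped, with 12.1, 5.42 and 9.55 in SCFA 1 to 3 and 14.2, 20.7 and 10.9 in controls 1 to 3. The ratios of the other 5 genes overlapped too, and the SCFA mean for Junb was 26.6 against 27.9 in controls.

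Levels were compared between genes per kilobase of transcript, with lengths of the GENCODE M21 transcripts matched to the RefSeq rows. Egr1 was highest, with a mean of 36.6 CPM per kb and a range of 29.6 to 48.4 over the 6 libraries. Junb (16.4) and Nr4a1 (15.9) followed, and their ranges overlapped. Dusp1 averaged 7.87 and Fos 6.03 CPM per kb. Npas4 (2.94), Ier2 (2.90), Fosb (1.88) and Egr2 (1.03) were lowest. The range of Egr1 was the only one clear of its neighbour, since Junb reached 19.95 CPM per kb, and each other neighbouring pair in this order overlapped. With SCFA, Junb (16.9 ± 3.39) had a higher mean than Nr4a1 (13.2 ± 2.99), while in controls Junb (15.99 ± 2.48) had a lower one than Nr4a1 (18.6 ± 2.16 CPM per kb, SD, n = 3 each), and this change of order was not tested.

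**Figure D3:**
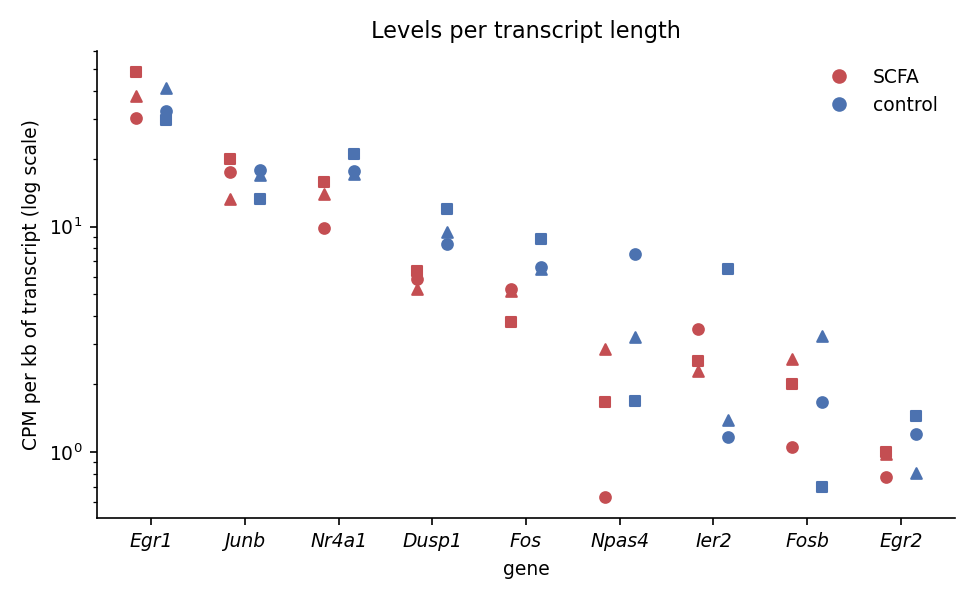
CPM per kb of transcript for each gene and library on a log scale, with SCFA to the left and control to the right within each gene. Egr1 spans 29.6 to 48.4 and lies clear of the rest, and Egr2 is lowest on average, at 1.03.

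Other genes of the same response were read from 3 lists. Of 44 further rapid response genes, 33 had enough counts. Of these 0 passed in edgeR, where 0.0835% of all genes tested did, and 2 had an unadjusted p under 0.05, where 5.76% did. DESeq2 and limma-voom also called 0 of the 33, and limma-voom called 0 over all genes. Their log2 fold changes lay below 0 for 15 and above 0 for 18, with a median of 0.02. The 4 with the smallest p were Klf10, Homer1, Nr4a3 and Dusp4. Klf10, a zinc-finger factor induced by TGF-beta, measured 10.5, 13.5 and 16.9 CPM in SCFA 1 to 3, against 16.92, 28.2 and 26.2 CPM in controls 1 to 3, a log2 fold change of -0.80 (SE 0.284, edgeR adjusted p = 0.864). Homer1, a scaffold of the postsynaptic density whose short form is induced by activity, had 14.5, 11.5 and 18.3 CPM in SCFA 1 to 3, against 20.6, 21.9 and 23.2 CPM in controls 1 to 3 (log2 fold change -0.57, SE 0.257, edgeR adjusted p = 0.864). The sum of its rows did not separate the short form from the long ones.

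Nr4a3, a relative of Nr4a1, had a log2 fold change of -0.49 (SE 0.274, edgeR adjusted p = 0.889), and all SCFA libraries lay below all controls. Nr4a2, the other relative, was named after its values were seen and stood at 0.84, 1.86 and 1.34 CPM in SCFA 1 to 3 and 0.81, 0 and 0.40 CPM in controls 1 to 3, so all SCFA libraries lay above all controls, on few counts. Dusp4, a phosphatase of the same family as Dusp1, likewise lay higher with SCFA, at 5.33, 4.74 and 3.80 CPM in SCFA 1 to 3 and 1.46, 0 and 3.604 CPM in controls 1 to 3 (edgeR adjusted p = 0.892). In this list 3 of 33 genes had all SCFA libraries below all controls and 3 had them above (Dusp4, Nr4a2 and Nfil3, the last also named after its values were seen), where 5.74% and 6.42% of all genes tested did. Jun, the founding AP-1 partner of Fos, named after its values were seen, averaged 23.4 ± 0.417 CPM with SCFA and 22.6 ± 4.50 CPM in controls.

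The list of delayed activity genes gave no call among 10 tested of 12 in edgeR, DESeq2 or limma-voom, with a median log2 fold change of -0.02. Of all genes tested, 0.0835% passed in edgeR. In edgeR 0 of the 10 had an unadjusted p under 0.05, where 5.76% of all genes tested did. The 4 with the smallest p were Syt4 (-0.18, SE 0.133), Pcsk1 (-0.29, SE 0.243), Baz1a (0.51, SE 0.479) and the neurotrophin gene Bdnf (0.57, SE 0.792). In all 10 the groups overlapped, where in 12.2% of all genes tested they did not. The upstream list of kinases, channels and transcription factors gave 0 calls among 23 tested of 26 in edgeR, DESeq2 or limma-voom, with a median of 0.01. The share of all genes that passed in edgeR was again 0.0835%. An unadjusted p under 0.05 in edgeR was reached by 0 of the 23, against the same 5.76% of all genes. Camk4, a calcium-dependent kinase that acts on CREB, measured 448.3 ± 20.0 CPM with SCFA and 537.4 ± 71.6 CPM in controls (log2 fold change -0.26, SE 0.135, edgeR adjusted p = 0.881), and Mef2d had -1.18 (SE 0.627). For both every SCFA library lay below every control, 2 of 23 genes of the list where 5.74% of all genes tested did. Mef2c had -0.32 (SE 0.236) and the kinase gene Mapk3 0.25 (SE 0.181), and their groups overlapped.

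**Figure D4:**
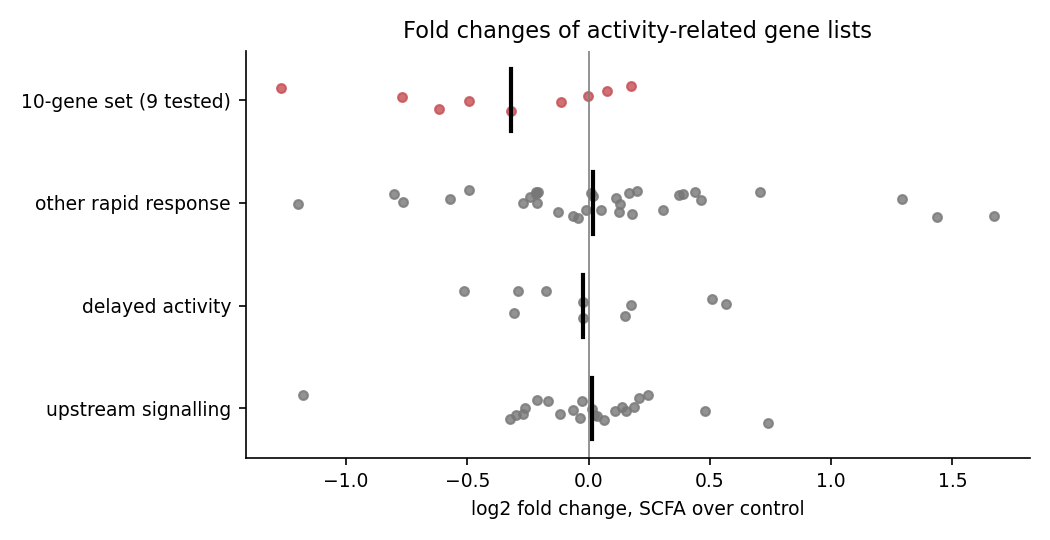
Log2 fold change (SCFA over control) of each tested gene of the immediate early set and of 3 further lists, each point a gene and the bar the median. The set has a median of -0.32, which is the value of Egr2 (SE 0.591), and the further lists lie at 0.02, -0.02 and 0.01.

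Kpna2, Bahd1, E2f4, Cog6 and Med10 were among the 6 genes in no list whose pattern over the 6 libraries was nearest to the mean of the 9 tested genes. Their root-mean-square differences from that mean lay between 0.06 and 0.08, where the median of 7006 candidates was 0.32. The mean pattern itself stood at -0.40, -0.03 and -0.03 in SCFA 1 to 3 and at 0.16, 0.15 and 0.14 in controls 1 to 3. It leaned on the variable genes, so it is not the pattern of each gene. The largest deviations were those of Npas4 in SCFA 1 (-1.75) and control 1 (1.73), Ier2 in control 2 (1.36) and Fosb in control 3 (0.96). E2f4, a cell cycle factor gene, averaged 11.3 CPM with SCFA and 14.3 CPM in controls, and Kpna2, a nuclear import receptor gene, 9.37 CPM with SCFA and 11.3 CPM in controls. None of these 5 passed in edgeR, and 0 had an unadjusted p under 0.05, where 5.76% of all genes tested did.

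Markers of other cells also stood apart between the groups. Summed microglial markers (10 genes, 1 of them called) were 626.1 to 944.1 CPM with SCFA and 361.7 to 468.1 CPM in controls, and astrocyte markers (8 genes) were 1114 to 1593 CPM with SCFA and 796.9 to 951.2 CPM in controls. Endothelial markers summed to 86.7 to 124.9 CPM with SCFA and 56.1 to 76.7 CPM in controls, with Pecam1 and Tek at 0 throughout, and hippocampal markers to 51.2 to 85.3 CPM with SCFA and 43.4 to 50.6 CPM in controls. The 8 exocrine pancreas markers summed to 0.275 to 1.15 CPM with SCFA and 32.4 to 336.7 CPM in controls. All 8 were called lower with SCFA, so they make up 8 of the 9 genes called lower in the whole table. The groups overlapped for excitatory and inhibitory neurons, striatal neurons, oligodendrocytes and choroid plexus, where Vip, Lhx6 and Folr1 were among the markers at 0. Between groups, Dusp1, Nr4a1 and Fos lay lower with SCFA, where the microglial, astrocyte and endothelial sums lay higher. Within groups this held in some cases and not in others. Among controls, control 2 had the highest microglial and astrocyte sums and the highest Dusp1, Nr4a1 and Fos. Its endothelial sum was the lowest of the controls, at 56.1 CPM. Among SCFA libraries, SCFA 2 had the highest microglial, astrocyte and endothelial sums and the highest Dusp1 and Nr4a1, but the lowest Fos (7.97 CPM). The part of these markers in the gene values was not tested.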

How the data were processed

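The authors deposited raw read counts per RefSeq transcript for 34755 rows and 6 libraries. The tools named, per the submitters' processing notes, are featureCounts and CASAVA 1.8.2, with mm10; the sources used here give no aligner, strand setting or handling of shared reads. Per the labels' protocols, libraries came from snap-frozen cortex with an FFPE RNA kit. Here 34424 rows (99.05%) were matched to symbols through RefSeq GRCm38.p6 and summed per symbol. edgeR 4.0.16 in R 4.3.3 tested SCFA against control on all 6 libraries (filterByExpr, minimum count 10 and total 15; TMM; quasi-likelihood F test without covariate; Benjamini-Hochberg, 0.05). The SE is the log2 fold change divided by the square root of F; log2 CPM uses a prior count of 2. Alternatives include DESeq2 1.42.0 and limma-voom (limma 3.58.1). Each p-value sets the group difference against the spread between these libraries, which is estimated partly from all genes tested. Named genes are the 10 members, the 4 tested genes of smallest p in each further list, and the 6 genes of nearest pattern whose mean log2 CPM is 3 or more, of which 1 is not reported here. Nr4a2, Jun and Nfil3 were named outside this rule. Members and lists were chosen with earlier results of these data known.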

Additional observations from a re-analysis of the deposited data

How the results depend on the processing

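None of the 9 tested genes passed in any of the 18 alternatives run, and the lowest adjusted p was 0.173 (Npas4, without a filter on low counts). Of 162 gene values under those alternatives, 145 kept their sign and 17 did not. With total counts in place of TMM, which moved the median of all genes to 0.18 from 0.01, Fosb stood at 0.12 and Ier2 at 0.22, and the set's median was -0.12. With limma-voom Fosb was at 0.18 and Ier2 at 0.42, and with the most abundant unmatched row left out Fosb was at 0.00054. Without control 2 and SCFA 2 together, Junb was at -0.18, Egr1 at -0.11 and Ier2 at 1.18. Leaving out 1 library gave a range of -0.39 to 0.66 for Fosb, -0.057 to 0.23 for Junb, -0.0101 to 0.33 for Egr1 and -0.50 to 1.12 for Ier2. For Egr2 it was -0.52 to -0.13, for Nr4a1 -0.63 to -0.32, for Fos -0.69 to -0.46, for Dusp1 -0.87 to -0.61 and for Npas4 -1.83 to -0.50. For the set's median that range was -0.52 to -0.30, lowest without control 3 (-0.52) and control 1 (-0.50). The cause was not tested.

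Over all genes 1 was higher and 9 lower. Without a filter these were 30 and 25, with DESeq2 13 and 16, with limma-voom 0 and 0, without control 2 and SCFA 2 together 14 and 11, and with 1 library left out 0 to 8 and 0 to 13. With the replicate number as a block they were 10 and 12, Fosb stood at 0.12 and Ier2 at 0.31. Deviations from the group means were uncorrelated between libraries of equal number (-0.00206, 0.0101 and -0.00525 across genes), so the number was not taken as a pairing. The groups did not overlap in 3 of 9 genes, where 12.2% of all genes tested did not. In CPM of total counts they did not overlap in 2 of 9 genes, and per 100 Egr1 counts in 2 of 8. These 2 alternatives were chosen after seeing the data, and the share over all genes was not computed for them. Depth limits Egr2 and Ier2 most, with 209 and 283 counts over 6 libraries, and intervals on counts would cover counting error only.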
